A study of Homo sapiens with 9 samples.

Results

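The interleukin 1 family was followed across 9 RNA-seq libraries of Kyse150 and TE11, human cell lines derived from squamous cell carcinoma of the esophagus. The 10 genes are a listed set, of 66338 genes present in either count table: the ligands IL1A, IL1B, IL18, IL33 and IL36G, the antagonist IL1RN, the receptors IL1R1, IL1R2 and IL1RAP, and the protease CASP1. All 10 were found in both tables by their Ensembl identifiers. There were 2 Kyse150 knockdown libraries, carrying an shRNA against KDM2A delivered by lentivirus, 2 Kyse150 controls carrying a control shRNA (shNC), 2 libraries labelled TE11 knockdown and 3 TE11 controls. Both lines were grown in the same medium with fetal bovine serum, and the labels name no treatment besides the shRNA. No further shRNA against KDM2A is named, so its other effects cannot be told apart from those of less KDM2A. The labels call the replicates independent without saying what was repeated, so a p-value here reflects library-to-library spread, part of which may be technical.

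Interleukin 1 alpha and beta signal through IL1R1, which needs the accessory chain IL1RAP, and the adaptor MYD88 then passes the signal to NF-kB. IL1RN occupies IL1R1 without signalling, and IL1R2 is a decoy that binds the ligand but has no signalling domain. The precursors of IL1B and IL18 are cleaved by CASP1 inside inflammasomes, whereas full-length IL1A and IL33 are active and are known as alarm signals of squamous epithelium. IL36G, another epithelial cytokine, also uses IL1RAP as its accessory chain. KDM2A removes methyl groups from lysine 36 of histone H3 and has a zinc finger that binds unmethylated CpG dinucleotides.

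The promoters of IL1A, IL1B, IL1RN and IL1RAP are shown to display how their CpG content differs. These 4 genes were chosen with their responses known, and no relation between CpG content and response was tested. Each line gives the 250 bases before the first listed RefSeq start, 5′ to 3′ on the gene's strand, with every CpG in capitals (build GRCh38.p14). IL1A, IL1B and the antagonist IL1RN lie in the ligand cluster of chromosome 2, and IL1RAP on chromosome 3.
IL1A, chr2:112784494-112784743, reverse strand: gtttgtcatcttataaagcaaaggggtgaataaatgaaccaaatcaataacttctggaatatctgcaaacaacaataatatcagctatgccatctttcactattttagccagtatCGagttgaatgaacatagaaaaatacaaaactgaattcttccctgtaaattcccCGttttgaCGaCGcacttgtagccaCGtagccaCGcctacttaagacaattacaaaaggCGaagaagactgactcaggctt
IL1B, chr2:112836780-112837029, reverse strand: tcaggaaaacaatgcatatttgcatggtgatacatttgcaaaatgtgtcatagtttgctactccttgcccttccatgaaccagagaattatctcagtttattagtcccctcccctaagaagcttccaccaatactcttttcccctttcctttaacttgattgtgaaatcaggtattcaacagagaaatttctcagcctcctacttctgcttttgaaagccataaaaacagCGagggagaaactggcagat
IL1RN, chr2:113117721-113117970, forward strand: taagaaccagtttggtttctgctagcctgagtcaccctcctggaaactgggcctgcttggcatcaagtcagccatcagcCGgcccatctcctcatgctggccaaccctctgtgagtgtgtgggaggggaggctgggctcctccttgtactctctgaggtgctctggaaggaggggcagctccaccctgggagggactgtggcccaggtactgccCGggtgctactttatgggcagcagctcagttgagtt
IL1RAP, chr3:190513835-190514084, forward strand: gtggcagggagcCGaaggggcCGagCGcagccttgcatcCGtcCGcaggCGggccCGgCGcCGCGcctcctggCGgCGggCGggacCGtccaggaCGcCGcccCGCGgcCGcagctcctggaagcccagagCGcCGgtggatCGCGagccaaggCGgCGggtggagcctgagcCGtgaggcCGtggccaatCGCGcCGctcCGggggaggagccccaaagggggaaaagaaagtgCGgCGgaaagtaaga

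IL1RAP held 33 CpGs in this window, at 74.8% G and C, while IL1A held 7, IL1B 1 and IL1RN 2. Relative to the number expected from base composition, however, IL1A was close to IL1RAP: the observed to expected ratio was 0.961 for IL1RAP, 0.805 for IL1A, 0.104 for IL1B and 0.0904 for IL1RN, and 47.5% of all windows exceeded 0.6. Over all 35116 start sites in the RefSeq table the median was 11, and 93.2% of them had 33 or fewer. The table held 8 of the 10 members with 16 start sites between them, and apart from IL1RAP and 1 of the 4 starts of IL1R1 (31 CpGs) each of the 16 windows had 9 or fewer. The windows were also searched on both strands for TATAAA, for TGANTCA (the AP-1 core) and for the NF-kB consensus, which 10.7%, 6.57% and 5.21% of all windows hold. Motif matches in the first listed windows were a TATAAA and a TGANTCA in IL1A and a TGANTCA in IL1RN. IL1B and IL1RAP held none of the 3 motifs there, which says only that those letters are absent from these windows.

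**Figure D1:**
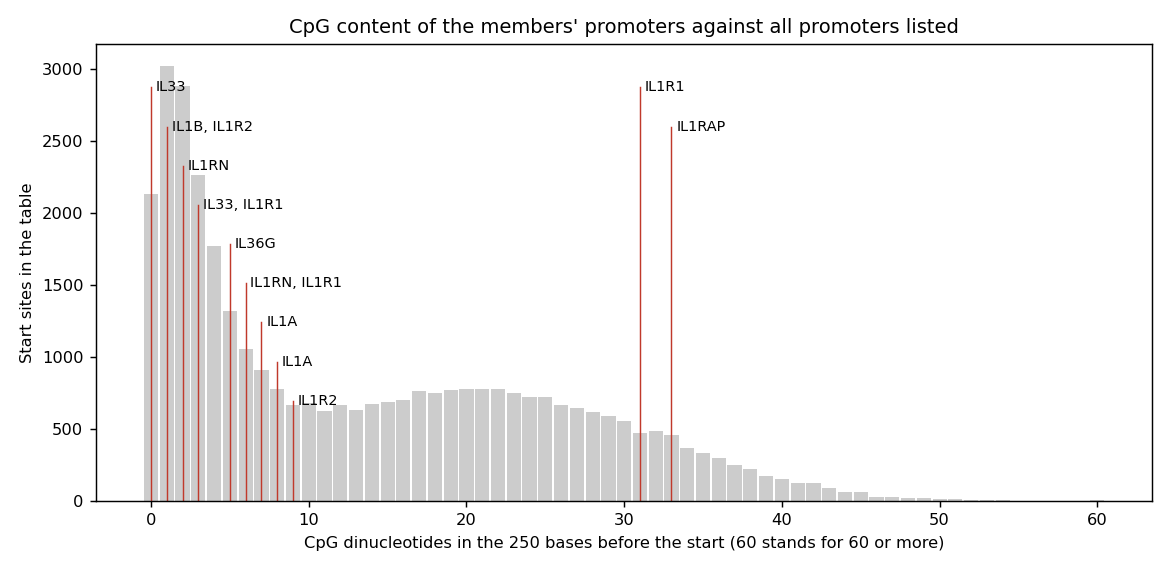
Grey bars count start sites in the RefSeq table (y axis) by their number of CpG dinucleotides in the 250 bases before the start (x axis), and red lines mark the members' start sites. The last bar holds 60 or more. Most member windows sit at 9 or fewer CpGs, while IL1RAP, at 33, and 1 start of IL1R1, at 31, lie far to the right.

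KDM2A and the markers were checked before the family. KDM2A stood at 106 and 104 CPM (counts scaled to a common library size) in the Kyse150 knockdowns, against 176 and 177 CPM in the Kyse150 controls, which is 0.611 of the controls (edgeR adjusted p = 3.87e-09, log2 SE 0.07). In TE11 it stood at 135 and 149 CPM in the libraries labelled knockdown, against 129, 125 and 129 CPM in the controls, so the target gene goes against that label. Across 12103 coding genes, which are not replicates, Pearson r of those libraries was 0.935 to 0.941 against Kyse150 controls but 0.781 to 0.783 against TE11 controls. Every TE11 direction below is between libraries as labelled. Gene counts per library came to 6052883 to 7167055 in Kyse150 and 8457767 to 12073098 in TE11. All 12 squamous markers had at least 1 count in each of the 4 groups. SOX2, however, had only 1 count over each group outside the TE11 controls, where it had 739. The 12 summed to 1960 to 1993 CPM in Kyse150 knockdowns and 2163 to 2219 in Kyse150 controls. KRT5 weighs most in these sums, with means of 1037 and 1250 CPM. By gene, 6 of 11 tested were called higher in the knockdowns and 3 lower. Of all genes tested there, 24.8% were called higher and 23.3% lower. In TE11 they summed to 2047 to 2093 CPM in the libraries labelled knockdown and 5757 to 6279 in controls. There 11 of the 12 were called lower, and PKP1 was 5.53-fold higher. Of all genes tested in TE11, 42.2% were called lower and 35.9% higher. SOX2 entered only through its counts in the controls, so this count is a description. Leukocyte markers, which matter because myeloid cells make much interleukin 1, summed to 5.47 to 5.49 CPM in Kyse150 knockdowns and 2.81 to 3.47 in Kyse150 controls, and to 2.62 to 3.91 CPM in the libraries labelled TE11 knockdown and 3.74 to 4.49 in TE11 controls. Of these 17 markers, 8 were at 0 in Kyse150 knockdowns and 11 in Kyse150 controls, and 9 in each TE11 group. PTPRC, SPI1, AIF1 and MS4A1 had 0 counts in all 9 libraries. CSF1R, the only one tested in Kyse150, had 44 counts over the knockdowns and 17 over the controls. It was 2.77-fold higher (log2 SE 0.44, edgeR adjusted p = 0.00508). In TE11 CSF1R was not called (edgeR adjusted p = 0.569). ITGAM had 2 counts over the libraries labelled TE11 knockdown and 46 over the TE11 controls (edgeR adjusted p = 0.000214). Endothelial markers, mostly EGFL7, summed to 39.6 to 40.2 CPM in Kyse150 knockdowns and 16.6 to 21.3 in controls, and fibroblast markers to at most 11.8 CPM in knockdowns and 6.80 in controls. In TE11 the endothelial sums were 13.5 to 13.8 CPM in the libraries labelled knockdown and 73.2 to 82.6 in controls, and the fibroblast sums 2.99 to 4.14 CPM in the libraries labelled knockdown and 29.8 to 32.6 in controls. The part of these marker differences in the results was not tested.

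In Kyse150, interleukin 1 alpha and beta were both several times higher after the KDM2A shRNA, while the accessory chain IL1RAP differed little. IL1A had 270 and 291 counts (39.9 and 47.0 CPM) in the knockdowns, against 65 and 50 counts (9.41 and 7.39 CPM) in the controls. Both knockdowns lay far above both controls. IL1A rose 5.27-fold (log2 SE 0.17; edgeR quasi-likelihood test with Benjamini-Hochberg adjustment, adjusted p = 2.08e-12). IL1B, the secreted form that needs caspase cleavage, had 310 and 255 counts (45.9 and 41.2 CPM) in the knockdowns, against 33 and 34 counts (4.78 and 5.02 CPM) in the controls. It rose 9.06-fold (log2 SE 0.20; edgeR adjusted p = 2.70e-14), again with no overlap. In these bulk RNA samples more cells that make a transcript and more RNA per cell cannot be told apart.

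IL18, the other CASP1 substrate, rose less in Kyse150. It had 284 and 281 counts in the knockdowns, against 221 and 180 counts in the controls, so the lowest knockdown was above the highest control. The rise was 1.52-fold (log2 SE 0.12; edgeR adjusted p = 0.000152). IL1RN, the receptor antagonist, had 13 and 10 counts in the knockdowns, against 5 and 2 in the controls. It rose 3.46-fold (log2 SE 0.66; edgeR adjusted p = 0.0150), a call that rests on few counts and was lost without knockdown replicate 1 (adjusted p = 0.151), knockdown replicate 2 (0.0688) or control replicate 2 (0.200), and with DESeq2 (0.172; 0.0103 to 0.200 over the alternatives). IL33 had 0 counts in all 4 Kyse150 libraries, where 3 counts over a group would be 0.232 CPM in knockdowns and 0.219 in controls. IL36G had 1 and 0 counts in the knockdowns and 0 in both controls. Both genes were thus at or under that floor.

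Among the receptors in Kyse150, IL1RAP had 284 and 236 counts in the knockdowns, against 253 and 203 counts in the controls; scaled for library size, the groups lay close but did not overlap. It was 1.23-fold higher (log2 SE 0.12; edgeR adjusted p = 0.0434), a call lost without knockdown replicate 1 (0.275) or control replicate 2 (0.393), with the replicate number as a block (0.0551) and in 3 further alternatives (0.0147 to 0.393 over all). IL1R1, the signalling receptor, had 2 and 3 counts in the knockdowns, against 2 and 7 in the controls. The groups overlapped, and IL1R1 was too low to be tested. The decoy IL1R2 had 8 and 11 counts in the knockdowns, against 0 and 1 in the controls, a ratio of 20.5 (95% counting interval 3.26 to 853). It did not pass the filter on low counts, and with no filter its log2 fold change was 4.04 (edgeR adjusted p = 0.00107). Without control replicate 2, which held the single count, the controls were at 0. CASP1 had 1 and 3 counts in the knockdowns, against 0 and 1 in the controls, and was not tested.

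Thus 5 of the 10 members passed the filter in Kyse150 (IL1A, IL1B, IL1RN, IL18 and IL1RAP), and each was called higher. Of all 14060 genes tested, 24.8% were called higher, 23.3% lower and 48.2% in either direction, and the groups did not overlap in 73.3%. The median log2 fold change of the 5 was 1.79, beside 0.0023 over all genes tested. IL1RN passed the filter through the knockdowns, where it is high, so this count is a description. DESeq2 called IL1A, IL1B and IL18, 3 of the 5.

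**Figure D2:**
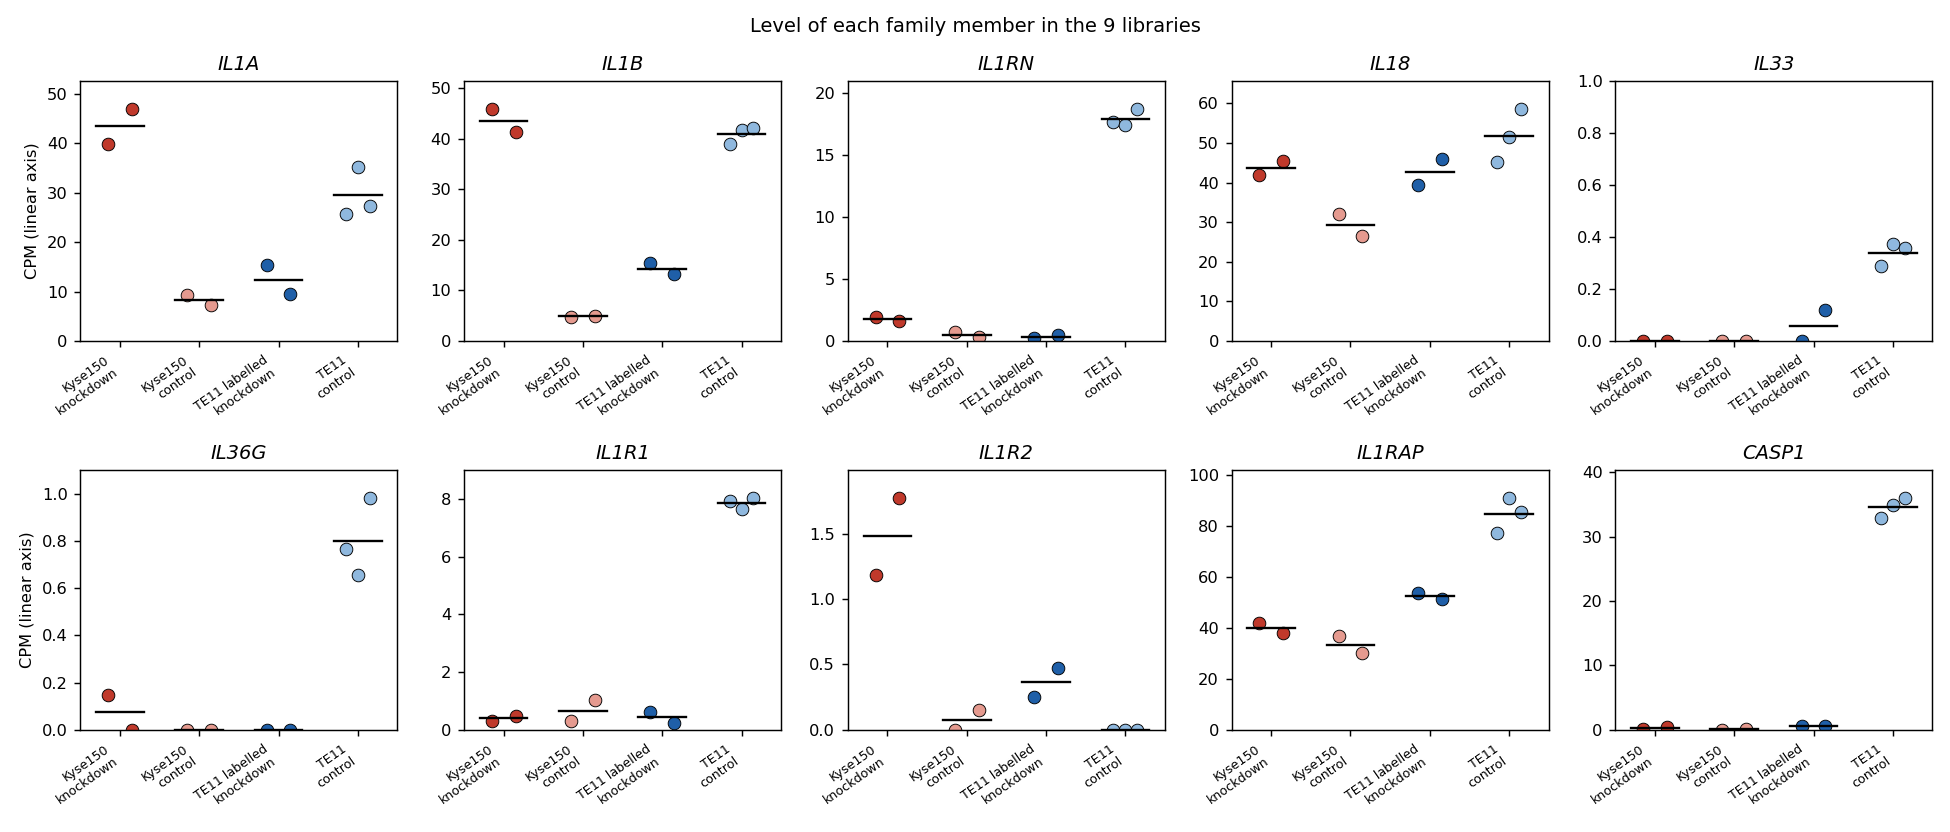
Each point is the level of a member in 1 library, in CPM on linear axes that differ between panels, and bars are group means (n = 2, 2, 2 and 3 from left to right). IL1A and IL1B are high in the Kyse150 knockdowns and the TE11 controls, while IL1RN, IL1R1 and CASP1 are high in the TE11 controls and near 0 elsewhere.

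In TE11 every member that passed the filter on low counts was lower in the libraries labelled knockdown. CASP1, IL1RN and IL1R1 were nearly absent there, and IL1A and IL1B were lower by a smaller factor. CASP1 had 4 and 5 counts in the libraries labelled knockdown, against 345, 373 and 403 in the controls. It fell to 0.0162 of the TE11 controls (log2 SE 0.46; edgeR adjusted p = 9.27e-26). IL1RN had 2 and 4 counts in the libraries labelled knockdown, against 185, 186 and 209 in the controls. It fell to 0.0211 of the controls (log2 SE 0.58; edgeR adjusted p = 7.70e-21). IL1R1 had 5 and 2 counts in the libraries labelled knockdown, against 83, 82 and 90 in the controls. It fell to 0.0558 of the controls (log2 SE 0.57; edgeR adjusted p = 1.51e-13). In each of these 3 genes the groups lay far apart without overlap. For IL1RN and IL1R1 the libraries labelled TE11 knockdown overlapped the Kyse150 controls, which held 5 and 2 counts of IL1RN and 2 and 7 of IL1R1. For CASP1 they did not overlap the Kyse150 controls, which held 0 and 1 counts.

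The agonists differed less in TE11. IL1A stood at 15.3 and 9.47 CPM in the libraries labelled knockdown, against 25.8, 35.3 and 27.4 CPM in the TE11 controls. It fell to 0.421 of the controls (log2 SE 0.16; edgeR adjusted p = 1.64e-09). IL1B stood at 15.5 and 13.1 CPM in the libraries labelled knockdown, against 38.9, 41.7 and 42.1 CPM in the controls. It fell to 0.351 of the controls (log2 SE 0.12; edgeR adjusted p = 3.17e-15). Neither gene's groups overlapped. IL18 stood at 39.4 and 46.1 CPM in the libraries labelled knockdown, against 45.2, 51.5 and 58.6 CPM in the controls. Here the groups overlapped: IL18 was at 0.830 of the controls (log2 SE 0.10; edgeR adjusted p = 0.0143), a call lost without labelled knockdown replicate 1 (0.295), without control replicate 3 (0.130) and with the replicate block (0.152; 9.83e-05 to 0.295 over the alternatives). IL1RAP stood at 53.6 and 51.4 CPM in the libraries labelled knockdown, against 77.3, 91.2 and 85.4 CPM in the controls, and fell to 0.623 of the controls (log2 SE 0.09; edgeR adjusted p = 1.62e-09).

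IL36G had 0 counts in both libraries labelled TE11 knockdown, against 8, 7 and 11 in the TE11 controls. With a floor of 3 counts over the group at 0 it was 4.39-fold lower, which leaves out the counting error of the other group. IL33 had 0 and 1 counts in the libraries labelled knockdown, against 3, 4 and 4 in the controls, a ratio of 0.180 whose 95% counting interval of 0.00417 to 1.24 includes no difference. IL1R2 ran the other way, with 2 and 4 counts in the libraries labelled knockdown and 0 in all 3 controls. With 3 counts set for the controls it was 3.95-fold higher, again without that counting error. These 3 genes did not pass the filter on low counts. With no filter, IL1R2 was called higher (edgeR adjusted p = 0.0196), IL36G was called lower (0.000489) and IL33 was not called (0.204). Hence 7 of 10 members were tested and each was called lower. Of all 16453 genes tested, 42.2% were called lower, 35.9% higher and 78.1% in either direction, and the groups did not overlap in 84.3%. The median log2 fold change of the 7 was -1.51, beside -0.09 over all genes. CASP1, IL1RN and IL1R1 passed the filter only through the controls, where they are high, so this count too is a description.

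**Figure D3:**
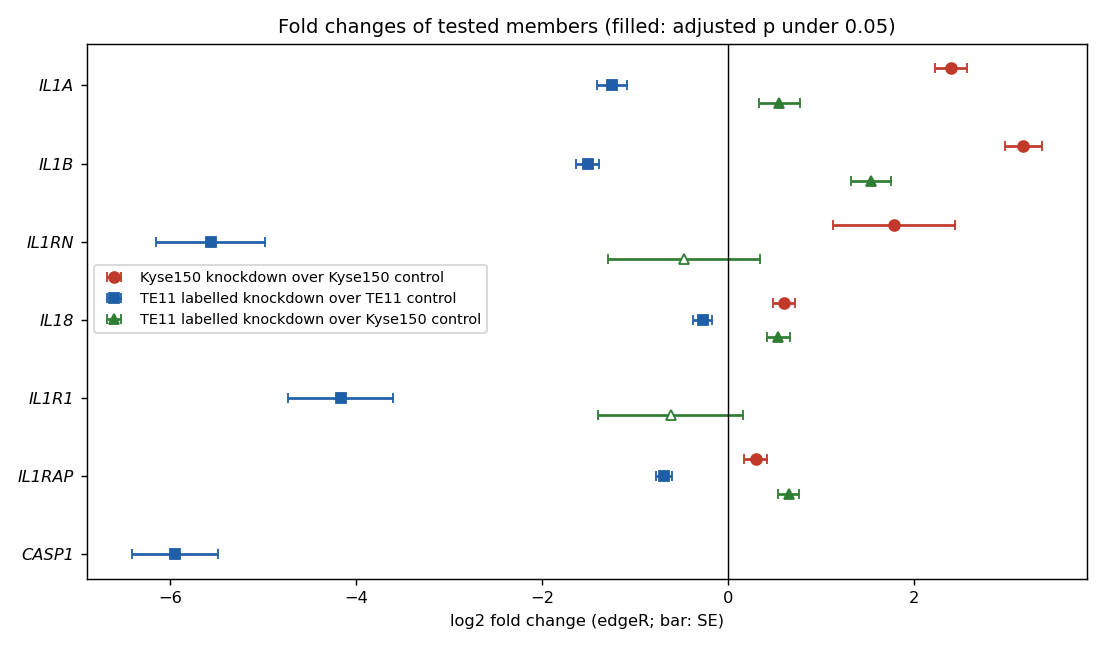
Points are log2 fold changes of tested members (x axis) with SE bars for 3 comparisons (legend), filled where the edgeR adjusted p was under 0.05; comparisons with 3 or fewer counts in a group are left out. IL1A and IL1B are higher in Kyse150 knockdowns and lower in the libraries labelled TE11 knockdown, and IL1RN, IL1R1 and CASP1 show the largest drops among the members drawn.

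Because KDM2A and the library correlations went against the TE11 label, the same libraries were also set against the Kyse150 controls, in 1 fit of all 9 libraries over genes listed in both tables. Line, count table and annotation cannot be told apart there, and the comparison shares its libraries with those above. KDM2A was at 0.804 of the Kyse150 controls in this comparison (log2 SE 0.07, edgeR adjusted p = 0.000199). IL1B was 2.91-fold higher in the libraries labelled TE11 knockdown than in the Kyse150 controls (log2 SE 0.21; edgeR adjusted p = 7.57e-10), IL1RAP 1.57-fold (log2 SE 0.11; 7.01e-07) and IL18 1.46-fold (log2 SE 0.12; 0.000149). IL1A was 1.47-fold higher (log2 SE 0.22; edgeR adjusted p = 0.0297), a call lost without labelled knockdown replicate 1 (0.615), without Kyse150 control replicate 2 (0.229), with upper quartile scaling (0.0736), with library totals only (0.0935) and with DESeq2 (0.0679; 0.00117 to 0.615 over the alternatives). CASP1 had 9 counts over the libraries labelled TE11 knockdown and 1 over the Kyse150 controls, a ratio of 7.47 (95% counting interval 1.04 to 328). Its edgeR adjusted p of 0.0336 was lost in 5 alternatives (0.0312 to 0.233), among them each library of the labelled knockdown and Kyse150 control replicate 1 left out. IL1RN was at 0.720 of the Kyse150 controls (log2 SE 0.82; edgeR adjusted p = 0.653) and IL1R1 at 0.654 (log2 SE 0.78; 0.526). In this comparison 5 of 8 tested members were called higher. Of 15930 genes, 27.9% were called higher, 25.9% lower and 53.8% in either direction, and the groups of 74.3% did not overlap. CASP1, IL1RN, IL1R1 and IL1R2 passed the filter only through groups outside this comparison, so this count is a description. IL1R2, the remaining tested member, had 6 counts against 1.

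TE11 controls held more of most members than Kyse150 controls. CASP1 had 1121 counts over the TE11 controls and 1 over the Kyse150 controls, a ratio of 474 (95% counting interval 84.9 to 18739). IL1RN was 34.1-fold higher in TE11 controls (log2 SE 0.56; edgeR adjusted p = 3.96e-23) and IL1R1 11.7-fold (log2 SE 0.54; 8.93e-13). IL1B was 8.32-fold higher (log2 SE 0.19; edgeR adjusted p = 1.06e-27), IL1A 1.81 log2 units (SE 0.19; 1.61e-12), IL1RAP 2.54-fold (log2 SE 0.10; 2.18e-20) and IL18 1.77-fold (log2 SE 0.11; 1.05e-09). CASP1 and IL1R1 passed the filter only through the TE11 controls, where they are high, so the following count is a description. In all, 7 of 8 tested members were called higher, where 43.5% of genes were called higher, 36% lower and 79.6% in either direction, and the groups of 85.2% did not overlap. The same 7 stay called, and higher, in a fit without both libraries labelled TE11 knockdown, added after seeing the data. Those libraries are not part of this comparison, so the refit could change only the filter, the scaling and the estimate of spread. IL1R2, the member not called, had 0 counts over the TE11 controls and 1 over the Kyse150 controls.

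The response to the labelled knockdown was then compared between the lines, as the log2 fold change of TE11 as labelled minus that of Kyse150 in the 9-library fit. It was lower in TE11 for 7 of 8 tested members, with IL1A at -3.62 (SE 0.26; edgeR adjusted p = 2.02e-17) and IL1B at -4.67 (SE 0.24; 1.36e-30). Of 15930 genes, 33.1% were called lower by this contrast, 33.7% higher and 66.8% in either direction. CASP1 and IL1R1 entered this contrast only through the high TE11 controls, which sets a negative TE11 response, so the count of 7 is a description. IL1R2 was not called (edgeR adjusted p = 0.498), with 0 counts over the TE11 controls and 1 over the Kyse150 controls.

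The order of the 4 groups differed between members. IL1A ran from Kyse150 knockdowns (43.5 ± 5.00 CPM, SD, n = 2) through TE11 controls (29.5 ± 5.10, SD, n = 3) and libraries labelled TE11 knockdown (12.4 ± 4.14, SD, n = 2) to Kyse150 controls (8.40 ± 1.43, SD, n = 2). The last step was small: the lower labelled library, at 9.47 CPM, nearly met the higher Kyse150 control, at 9.41. IL1B ran in the same order, and its highest groups overlapped, at 43.5 ± 3.30 CPM in Kyse150 knockdowns (SD, n = 2) and 40.9 ± 1.73 CPM in TE11 controls (SD, n = 3). IL18 had means of 29.3 to 51.8 CPM, and its upper 3 groups overlapped each with the next. IL1RAP was highest in TE11 controls, at 84.6 ± 6.97 CPM (SD, n = 3), then in the libraries labelled TE11 knockdown, at 52.5 ± 1.55 (SD, n = 2), Kyse150 knockdowns and Kyse150 controls, with no overlap between neighbours. CASP1 was at 34.6 ± 1.56 CPM in TE11 controls (SD, n = 3) and at 0.592 CPM or less in each of the other 6 libraries.

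Levels of different members were compared per kilobase of merged exon (GENCODE release 29). IL1A averaged 20.5 and IL1B 14.1 CPM per kilobase in Kyse150 knockdowns, against 3.95 and 1.58 in Kyse150 controls. In the libraries labelled TE11 knockdown IL1A averaged 5.84 and IL1B 4.62 CPM per kilobase, against 13.9 and 13.2 in TE11 controls. Of the reads on either agonist, IL1B held 53.4% (exact 95% interval 49.3 to 57.6) and 46.7% (42.5 to 51.0) in the Kyse150 knockdowns, against 33.7% (24.4 to 43.9) and 40.5% (29.9 to 51.7) in the Kyse150 controls. It held 50.2% and 58.1% in the libraries labelled TE11 knockdown, against 60.1%, 54.1% and 60.6% in the TE11 controls. The intervals cover counting error only, since reads without molecular identifiers are not independent molecules.

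The antagonist was scarce beside the agonists outside the TE11 controls. On the scale per kilobase IL1RN made up 1.73% and 1.38% of the summed level of IL1A, IL1B and IL1RN in Kyse150 knockdowns, against 3.59% and 1.75% in Kyse150 controls. It made up 0.623% and 1.64% in the libraries labelled TE11 knockdown, against 18.0%, 15.1% and 17.8% in TE11 controls. IL1R1 per kilobase averaged 0.0551 CPM in Kyse150 knockdowns and 0.0934 in Kyse150 controls, and 0.0607 in the libraries labelled TE11 knockdown and 1.11 in TE11 controls. The accessory chain IL1RAP averaged 3.47 and 2.88 CPM per kilobase in the Kyse150 knockdowns and controls, so its level stood far above that of its partner IL1R1.

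**Figure D4:**
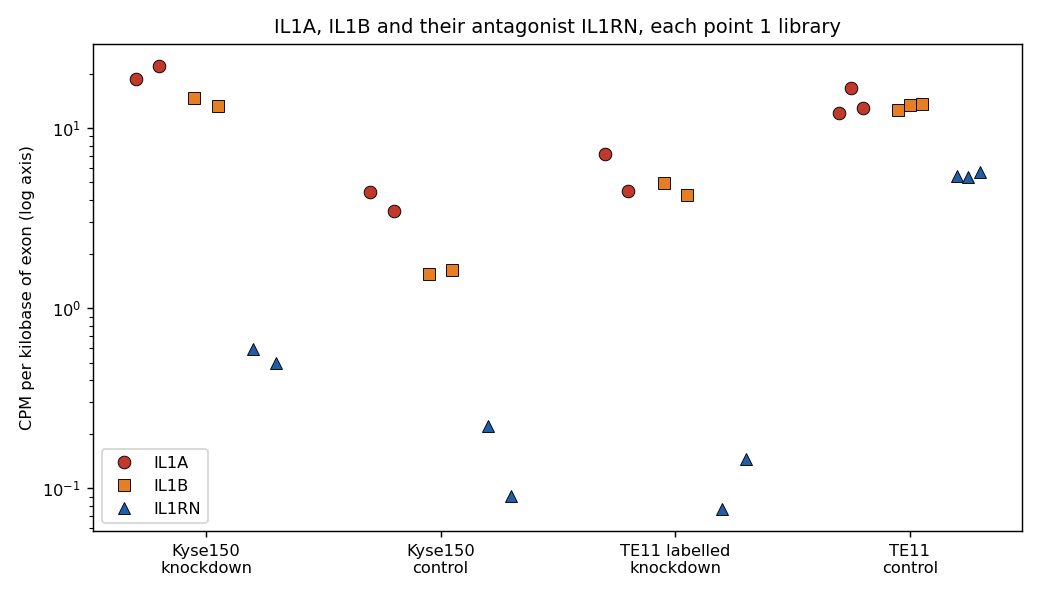
Each point is 1 library, with the level per kilobase of exon on a log axis for IL1A (circles), IL1B (squares) and the antagonist IL1RN (triangles). IL1RN lies below the agonists everywhere, closest in the TE11 controls.

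IL1A (chr2:112773915-112784590) and IL1B (chr2:112829751-112836903) are neighbours on the reverse strand, and IL1RN (chr2:113107214-113134016, forward strand) lies at the other end of the ligand cluster, by GENCODE release 29 on GRCh38. The ligand genes between them stayed low in Kyse150: IL37, IL36G, IL36A, IL36B and IL1F10 had 0 to 2 counts in each of the 4 libraries. IL36RN, which antagonises the IL-36 receptor, had 13 and 12 counts in Kyse150 knockdowns, against 10 and 3 in controls (edgeR adjusted p = 0.108). In TE11 it had 4 and 4 counts in the libraries labelled knockdown, against 58, 77 and 77 in the controls, and fell to 0.0764 of the controls (log2 SE 0.54; edgeR adjusted p = 1.00e-11). IL1R2 and IL1R1 lie side by side in the receptor cluster, from chr2:101991844 to chr2:102179874, and in TE11 as labelled IL1R1 fell while IL1R2 held 6 counts, against 0 in the controls.

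CASP1 (chr11:105025443-105035250) lies among the inflammatory caspases, whose values were looked up after those of CASP1 were seen. CASP4, which senses bacterial lipopolysaccharide, had 204 and 196 counts in Kyse150 knockdowns, against 130 and 134 in controls, and rose 1.64-fold (log2 SE 0.14; edgeR adjusted p = 0.000145). In TE11 it had 312 and 297 counts in the libraries labelled knockdown, against 493, 515 and 557 in the controls, at 0.769 of the controls (log2 SE 0.10; edgeR adjusted p = 0.000415). CARD16, a near copy of the start of CASP1 whose reads may be split with it, had 0 counts in every library except the TE11 controls, with 47, 52 and 33. The near loss seen for CASP1 was thus not matched by CASP4, its neighbour beyond CASP5, while CARD16, on the other side, had counts only in the TE11 controls. CASP5 had 1 count over the TE11 controls and 0 in the other groups.

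Further genes of the pathway were taken from 4 lists. Genes that passed the filter only through 1 group are among them, so their counts are descriptions. Of 13 other family ligands, inhibitors and receptors, 4 were tested in Kyse150, and 2 rose, where 24.8% of all genes were called higher: SIGIRR, an inhibitory receptor, 1.35-fold (log2 SE 0.10; edgeR adjusted p = 0.000904) and IL18BP, which neutralises IL18, 1.17-fold (log2 SE 0.09; 0.0450). IL18R1, the IL18 receptor chain, stood at 1.98-fold (edgeR adjusted p = 0.111). In TE11 5 were tested, and 2 were called higher and 1 lower. Of all genes tested there, 35.9% were called higher, 42.2% lower and 78.1% in either direction. SIGIRR was 1.82-fold higher (log2 SE 0.14; edgeR adjusted p = 3.32e-07) and IL1RL1, the IL33 receptor, 4.96-fold (log2 SE 0.64; 0.000483) in the libraries labelled knockdown. IL36RN fell, and IL18BP and IL18R1 were not called (edgeR adjusted p = 0.153 and 0.374). IL1RL1 rests on 11 and 15 counts in the libraries labelled knockdown, against 4, 4 and 2 in the controls, and its exons overlap those of IL18R1 on the same strand. IL18BP overlaps NUMA1 on the opposite strand, and its call in Kyse150 lies near the limit of 0.05. Calls of genes in these 4 lists were not followed through the alternatives used for the members.

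Signalling genes had no common direction. Of the list's 17 genes, 15 were tested in Kyse150, and 7 rose and 3 fell, where 24.8% of all genes were called higher and 23.3% lower (median log2 fold change 0.05, beside 0.0023 over all genes). SQSTM1, a signalling scaffold, rose 1.48-fold (log2 SE 0.05; edgeR adjusted p = 8.45e-10), the kinase IRAK2 1.79-fold (log2 SE 0.19; 0.000512) and TAB1 by 0.37 log2 units (SE 0.10; 0.00400), while UBE2N, a ubiquitin-conjugating enzyme, fell to 0.669 of control (log2 SE 0.07; 3.55e-07). Of 16 tested in TE11, 6 were higher and 6 lower (median -0.02, beside -0.09), where 35.9% of all genes were called higher, 42.2% lower and 78.1% in either direction, so the share called was near that of all genes. IRAK1, the kinase downstream of MYD88, was 2.20 log2 units higher in the libraries labelled knockdown (SE 0.06; edgeR adjusted p = 3.79e-32), TOLLIP 3.32-fold (log2 SE 0.11; 1.67e-19) and ECSIT 2.77-fold (log2 SE 0.09; 1.30e-19). PELI2, a ubiquitin ligase of this pathway, had 0 counts in the libraries labelled knockdown and in all 4 Kyse150 libraries, against 690, 810 and 770 in the TE11 controls. With 3 counts set for the libraries labelled knockdown it was 383-fold lower than in the TE11 controls. MYD88 itself stood at 0.820 of control in Kyse150 (edgeR adjusted p = 0.0282) and at 1.06-fold in TE11 (0.403); it was picked as the shared adaptor after its values were seen.

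Of 21 genes of precursor processing and release, 11 were tested in Kyse150, and 8 rose and 1 fell (median log2 fold change 0.38, beside 0.0023 over all genes). Of all genes tested there, 24.8% were called higher and 48.2% in either direction. GSDMB, a pore-forming gasdermin, rose 2.97-fold (log2 SE 0.24; edgeR adjusted p = 2.39e-06), GSDME 1.42-fold (log2 SE 0.08; 7.78e-06) and the calpain subunit CAPNS1 1.25-fold (log2 SE 0.06; 2.93e-05). CAPN1, a calpain of the class that cleaves the IL1A precursor, fell to 0.688 of control (log2 SE 0.06; edgeR adjusted p = 2.42e-08). In TE11, 11 of 14 tested were lower and 2 higher (median -0.99, beside -0.09), where 42.2% of all genes were called lower and 78.1% in either direction. The inflammasome adaptor PYCARD had 1 and 0 counts in the libraries labelled knockdown, against 66, 54 and 81 in the controls, a ratio of 0.00983 (95% counting interval 0.000248 to 0.0554), and without labelled knockdown replicate 1 that group was at 0. NINJ1, which ruptures the membrane of dying cells, fell to 0.244 (log2 SE 0.11; edgeR adjusted p = 2.57e-21) and CASP8 to 0.272 of the controls (log2 SE 0.13; 2.49e-18), while GSDME was 4.35-fold higher (log2 SE 0.09; 1.94e-25).

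Genes known to be induced by interleukin 1 in epithelial or stromal cells were counted last. Of the list's 35 genes, 20 were tested in Kyse150, and 13 rose and 2 fell, where 24.8% of all genes were called higher and 48.2% in either direction (median log2 fold change 0.94, beside 0.0023 over all genes). NFKB2, an NF-kB subunit, rose 2.53-fold (log2 SE 0.08; edgeR adjusted p = 9.31e-14), ICAM1, an adhesion molecule, 2.40-fold (log2 SE 0.08; 9.14e-13) and TNIP1, a brake on NF-kB, 2.09-fold (log2 SE 0.07; 2.08e-12), while TNFAIP2 fell to 0.495 of control (log2 SE 0.07; 4.86e-12). Of 26 tested in TE11, 20 were lower and 2 higher, where 42.2% of all genes were called lower and 78.1% in either direction (median -1.69, beside -0.09). NFKBIA, the NF-kB inhibitor, fell to 0.126 of the controls (log2 SE 0.10; edgeR adjusted p = 1.43e-30), TNFAIP2 to 0.144 (log2 SE 0.07; 2.14e-32), the RNase ZC3H12A to 0.0515 (log2 SE 0.18; 4.24e-30) and LCN2, an iron-scavenging secreted protein, to 0.00390 (log2 SE 0.60; 5.99e-33). These medians are the same to 2 decimals with genes at 3 or fewer counts in a group set to their bound or ratio. IRAK2 is on this list and on that of the signalling genes, so it is counted in both. Some of these genes answer to other NF-kB signals as well, and the lists were drawn up with earlier results of these data known.

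A few targets were picked out after their values were seen, because they did not follow the rest of their list. IL6 had 113 and 112 counts in Kyse150 knockdowns, against 39 and 40 in controls, and rose 3.07-fold (log2 SE 0.21; edgeR adjusted p = 2.51e-07). In TE11 it had 63 and 58 counts in the libraries labelled knockdown, against 3, 8 and 4 in the controls, and was 15.5-fold higher (log2 SE 0.45; edgeR adjusted p = 2.05e-13). CXCL8, a neutrophil chemokine, had 6 and 14 counts in Kyse150 knockdowns, against 7 and 9 in controls, and CXCL1 had 0 counts in all 4. Both were too low to be tested there, and their counts showed no rise like that of IL1A and IL1B. In TE11 CXCL8 had 10 and 6 counts in the libraries labelled knockdown, against 209, 250 and 234 in the controls, and CXCL1 had 0, against 413, 386 and 417.

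**Figure D5:**
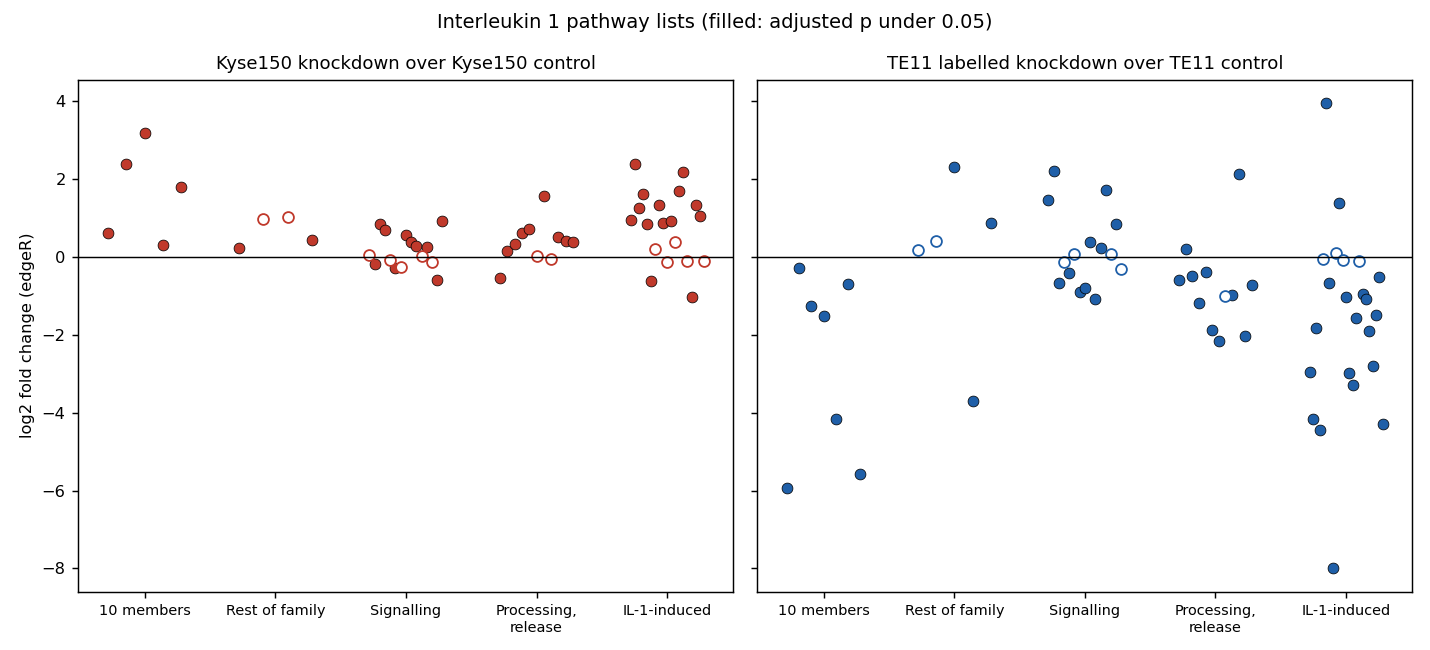
Each point is the log2 fold change (y axis) of 1 tested gene in the list named below it, in Kyse150 (left) and in TE11 as labelled (right), filled where the edgeR adjusted p was under 0.05; genes with 3 or fewer counts in a group are left out. Most induced genes lie above 0 in Kyse150 and under 0 in TE11, and signalling genes lie on both sides in each.

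The genes whose levels followed a member most closely were found by Pearson r of log2(CPM + 1) over the 9 libraries, among 10498 other coding genes in both tables with a mean of 5 CPM or more. IL1A was followed by SLC1A4 (r = 0.989), MMD (0.982) and KLHL24 (0.969). IL1B was followed by PSAT1 (r = 0.990), TM4SF1 (0.989) and TBC1D9 (0.981). IL1RAP was followed by ZNF330 (r = 0.995), ZMYM1 (0.993) and N4BP2L2 (0.992). The 9 libraries fall into 4 groups and share their scaling, so these values describe the 4 group levels and carry no test. PSAT1, which makes serine, stood at 329 and 331 CPM in Kyse150 knockdowns, against 155 and 141 CPM in Kyse150 controls, a smaller span than that of IL1B.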

How the data were processed

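Messenger RNA was enriched on oligo(dT) beads from Trizol extracts and sequenced as paired ends, per the labels' protocols. For each line the authors deposited a table of raw read counts, listing 57820 genes for Kyse150 and 60683 for TE11. The submitters' processing notes name these tools: bcl2fastq (2.19), HISAT2 (2.1.0), HTSeq (0.9.1) and DESeq2. They name both GRCh37.p13 and GRCh38.p13 without tying either to a table. No source used here gives the strand setting, so genes with an overlapping partner (IL1R1 with IL1R1-AS1, IL1RAP with AC108747.1) are uncertain. HTSeq's summary lines, 55.4% to 58.2% of a column, were left out of library sizes. The protocols speak of 3 replicates, but only the TE11 controls have 3 libraries here and the other groups have 2. Replicates differed by more than counting noise (chi-square per degree of freedom 1.62 to 4.92), so each was counted.

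Low genes were removed with filterByExpr (at least 10 counts in enough libraries, 15 in all). Each line was tested with edgeR 4.0.16 in R 4.3.3 (TMM, robust quasi-likelihood, group as the only term), and p-values were adjusted by Benjamini-Hochberg across every tested gene, with 0.05 as the limit. Comparisons across lines used 1 fit of 9 libraries over shared genes without mitochondrial genes, and all CPM values are on its TMM scale. The fits were also run on simulated counts in which few genes changed, leaving out the comparison between the controls. Far more genes were called here, so that run cannot show the error rates of these data. Where a group had 0 counts, a bound was set with 3 counts for that group, without the counting error of the other group. For 1 to 3 counts an exact 95% ratio interval is given. Alternatives were DESeq2 1.42.0, 3 scalings, 2 filters, a replicate block, the joint fit and each library left out. The members and lists were chosen with earlier results of these data known. Besides the members, the rule named the 4 genes with the smallest p of each list and line, family genes with 10 or more counts in a library, and the 3 genes most like IL1A, IL1B and IL1RAP.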

Additional observations from a re-analysis of the deposited data

Results flagged for a closer look

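For 7 members the response to the labelled knockdown differed between the lines, by a contrast of both responses in 1 edgeR fit of all 9 libraries. The contrast is the log2 fold change of TE11 as labelled minus that of Kyse150, and a negative value means a lower response in TE11. It was -3.62 for IL1A (adjusted p = 2.02e-17), -4.67 for IL1B (1.36e-30), -7.33 for IL1RN (3.32e-14), -0.85 for IL18 (5.30e-06) and -0.96 for IL1RAP (4.26e-08). It was -3.42 for IL1R1 (adjusted p = 0.00546), which rests on 5 counts over the Kyse150 knockdowns, 9 over the Kyse150 controls and 7 over the libraries labelled TE11 knockdown, and was lost without Kyse150 knockdown replicate 2 (-3.04, 0.0848). For CASP1 it was -7.83 (4.73e-06), on 1 count over the Kyse150 controls, so its size depends on the fit's prior count. CASP1 and IL1R1 passed the filter only through the high TE11 controls, which sets a negative TE11 response, so the count of 7 is a description. Of 15930 genes, 33.1% were called lower and 66.8% in either direction by the same contrast. Since KDM2A did not fall in TE11 as labelled, a response to less KDM2A and the identity of those libraries cannot be told apart here.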

How the results depend on the processing

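Of 528 refitted member values, 501 kept their direction and their side of the threshold, 24 kept the direction but lost the call and 3 changed sign. The changes of sign were in uncalled log2 values on few counts. For TE11 labelled knockdown against Kyse150 control, IL1RN ranged from -0.99 to 0.29 with each library left out (0.29 without Kyse150 control replicate 1) and IL1R1 from -1.42 to 0.54 (0.54 without Kyse150 control replicate 2). The IL1R2 response difference ranged from -1.96 (without Kyse150 control replicate 2) to 1.52. DESeq2 called 3 members, not 5, in Kyse150 and again 3, not 5, for TE11 labelled knockdown against Kyse150 control. It called 4337 genes, not 6771, in Kyse150, and the cause was not tested. With each library left out, the members called ranged from 3 to 6 in Kyse150, 6 to 8 in TE11, 7 to 7 between the controls, 3 to 5 for TE11 labelled knockdown against Kyse150 control and 6 to 7 for the response difference. All genes called ranged from 5409 to 5916, 11827 to 12596, 11933 to 12964, 7010 to 8849 and 9994 to 10536 in that order. The lowest member count in Kyse150, 3, came without knockdown replicate 1, and the lowest against Kyse150 control, 3, without labelled knockdown replicate 1. Same-numbered libraries did not deviate together (r of -0.04 in Kyse150). With 2 libraries in a group the deviations mirror each other, so this cannot show whether same-numbered libraries were prepared together. With the replicate block 4 members were called in Kyse150 and 6 in TE11. Library totals moved the median log2 difference of all genes between the control groups to -0.02, against 0.12 with TMM, and upper quartile scaling moved that of the response difference to -0.18, against -0.06. Depth limits IL33, IL36G, IL1R2 and, outside the TE11 controls, CASP1, IL1RN and IL1R1.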
